A study of Mus musculus with 21 samples.

Results

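Among the 48440 genes of the count table, 34 are imprinted genes, and they are the subject of this section. They were chosen by name from the imprinted clusters of the mouse, but with earlier results of these data known. All 34 were found in the table by their Ensembl identifiers. They fall into 16 clusters. By general knowledge of the mouse, 21 of them are expressed mainly from the paternal allele and 11 mainly from the maternal allele, while 2 use either allele depending on promoter or tissue. A filter on low counts left 21237 genes for testing, among them 30 of the 34. Meg3, Zim1, Nnat and Magel2 did not pass it and were not tested.

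The study sequenced RNA depleted of ribosomal RNA from 3 mouse cell lines after raising or lowering Esrp2-as, a noncoding antisense transcript at the splicing regulator gene Esrp2. 3T3-L1 is a preadipocyte line, and M27H4 and M6 are lines grown out of mammary tumours of mice with an SV40 T antigen transgene under the C3(1) promoter. The 6 groups were 3T3-L1 with Esrp2-as overexpression (2 replicates) and with the empty vector as control (2), M27H4 with Esrp2-as overexpression (3) and with the empty vector (3), and M6 with knockdown by LNA antisense gapmers (2) and a control that the labels call empty vector (2). Each line is 1 line, and the labels do not say whether replicates came from separate cultures, so the tests measure only the spread between these samples.

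Genomic imprinting is the expression of a gene from only the maternal or only the paternal copy. It is set by DNA methylation laid down in the germ line at imprinting control regions and kept through later cell divisions, and many such regions act through a long noncoding RNA that silences its neighbours on the same chromosome. In the H19-Igf2 cluster the growth factor gene Igf2 and the noncoding RNA H19 share enhancers, and the methylation state of the control region between them decides which of them is used on a given copy. In the KCNQ1 domain the noncoding RNA Kcnq1ot1, transcribed from the paternal copy, keeps Cdkn1c, Phlda2, Slc22a18 and Kcnq1 silent beside it. Counts of whole genes do not tell the copies apart, so the values below are totals over both copies.

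Some sequences are given here because the results turn on which of these transcripts each line made. H19 and Igf2 each hold a microRNA hairpin on their own strand, so each is a possible source of that microRNA. Other sources were not examined. The mature forms, from RefSeq on GRCm38.p6, run 5′ to 3′ with the seed, bases 2 to 8, in capitals. The miR-675 pair lies in H19 at chr7:142577078-142577133 and the miR-483 pair in Igf2 at chr7:142654932-142654989, all on the minus strand, and the 4 seeds differ.
mmu-miR-675-5p: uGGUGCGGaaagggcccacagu
mmu-miR-675-3p: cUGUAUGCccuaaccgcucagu
mmu-miR-483-5p: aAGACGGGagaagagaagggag
mmu-miR-483-3p: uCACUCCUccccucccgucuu
The libraries were not made for short RNA, so levels of the mature forms were not measured.

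Promoters are shown for Kcnq1ot1, Phlda2 and Igf2, genes of the clusters described first whose levels differed between the lines. Each is the 250 bases before the start, from RefSeq on GRCm38.p6, minus strand, 5′ to 3′, with CpG dinucleotides, the sites of DNA methylation, in capitals. For Igf2 the window used is the one whose transcripts held 4094 counts, while those that start at its other windows held 0. A further transcript, Igf2-205, starts at none of these windows. It held 89.2% of Igf2 counts in M27H4 overexpression replicate 1, 49.0% in M27H4 control replicate 2 and 0 in the other M27H4 replicates. In M6 control replicate 2 it held all 22 counts.
Kcnq1ot1, chr7:143296548-143296797: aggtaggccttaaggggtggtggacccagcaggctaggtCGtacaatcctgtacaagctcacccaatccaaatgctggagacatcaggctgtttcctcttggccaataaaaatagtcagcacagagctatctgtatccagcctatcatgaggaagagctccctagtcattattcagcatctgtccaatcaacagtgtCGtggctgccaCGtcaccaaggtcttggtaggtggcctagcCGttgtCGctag
Phlda2, chr7:143502525-143502774: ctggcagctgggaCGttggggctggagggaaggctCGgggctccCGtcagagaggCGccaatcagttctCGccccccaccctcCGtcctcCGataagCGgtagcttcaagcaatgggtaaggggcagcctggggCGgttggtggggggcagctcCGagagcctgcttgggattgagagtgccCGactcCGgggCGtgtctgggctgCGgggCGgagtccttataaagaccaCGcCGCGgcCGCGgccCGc
Igf2, chr7:142657497-142657746: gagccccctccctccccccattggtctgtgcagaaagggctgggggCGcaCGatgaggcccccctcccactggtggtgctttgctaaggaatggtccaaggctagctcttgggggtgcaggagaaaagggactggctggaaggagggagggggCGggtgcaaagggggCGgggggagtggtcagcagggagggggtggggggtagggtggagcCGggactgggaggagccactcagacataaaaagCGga
These windows hold 5, 21 and 6 CpG dinucleotides. The median over 32851 promoter windows of the same length was 6, and 16.3% of them held at least as many as that of Phlda2. No methylation was measured here.

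The 21 deposited columns held 34892461 to 138313667 counts and made up 14 replicates with 34892461 to 328493417. The targeted RNA, annotated as 1810019D21Rik, was at 35.5 to 45.8 CPM (counts per 1000000) in 3T3-L1 overexpression against 0.25 to 0.355 in control, at 15.9 to 65.9 CPM in M27H4 overexpression against 0.731 to 1.25 in control, and at 0.527 and 0.851 CPM in M6 knockdown against 2.96 and 2.42 in control. It was called in both overexpression comparisons but not in the knockdown (log2 -1.92, SE 0.55, edgeR adjusted p = 0.363), where the replicates did not overlap. Summed over 10 markers, the epithelial list had 18.4 to 25.3 CPM in 3T3-L1 control, 157 to 283 in M27H4 control and 3583 to 4908 in M6 control. Epcam, which marks epithelium, averaged 3.07 CPM in 3T3-L1 control and 729 in M6 control, while the M27H4 control replicates, though labelled as a mammary tumour line, had 0.0488, 8.14 and 4.73 CPM. The 10 preadipocyte and fibroblast markers summed to 6391 to 7148 CPM in 3T3-L1 control, 923 to 1103 in M27H4 control and 104 to 155 in M6 control. The 6 myoepithelial markers summed to 614 to 640, 17.9 to 34.7 and 1083 to 1843 CPM in the same order of groups. The 6 endothelial markers summed to 1.72 to 1.86, 22.3 to 32.2 and 0.228 to 0.498 CPM in that order, highest in M27H4. The 6 immune markers summed to 2.51 to 2.52, 1.63 to 2.56 and 8.38 to 13.7 CPM. Ptprc and Cdh5, which define blood and vessel cells, averaged at most 0.28 CPM in the control groups. The endothelial sum in M27H4 thus rests on other markers of its list. All line comparisons below move with these markers, and the part of line identity in any of them was not tested. Lanes matter as well: 3 of the 5 sequencing lanes held libraries of all 3 lines, while 1 held M6 columns and 1 held M27H4 columns, each without 3T3-L1.

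Levels are given in CPM of the effective library size, which is the total scaled by its TMM factor. With 1 CPM of the control mean as a mark, 18 of the 34 imprinted genes reached it in 3T3-L1, 9 in M27H4 and 9 in M6. Igf2r, Gnas, Impact, Zrsr1 and Peg13 reached it in every line. Airn, Dlk1, Peg3, Peg10, Sgce, Snrpn, Ndn, Mkrn3 and Nespas reached it in 3T3-L1 alone, Ppp1r9a in M27H4 alone, and Cdkn1c, Phlda2 and Slc22a18 in M6 alone. Igf2, Kcnq1ot1 and Dcn reached it in 3T3-L1 and M27H4, and H19 in 3T3-L1 and M6. The other 12 genes reached it in no line: Meg3, Rian, Mirg, Rtl1, Usp29, Zim1, Mest, Plagl1, Grb10, Ddc, Nnat and Magel2. The map of all replicates shows treated and control replicates of a line side by side in these patterns, and H19 in M6 is the gene for which they lie furthest apart among those above 1 CPM.

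**Figure D1:**
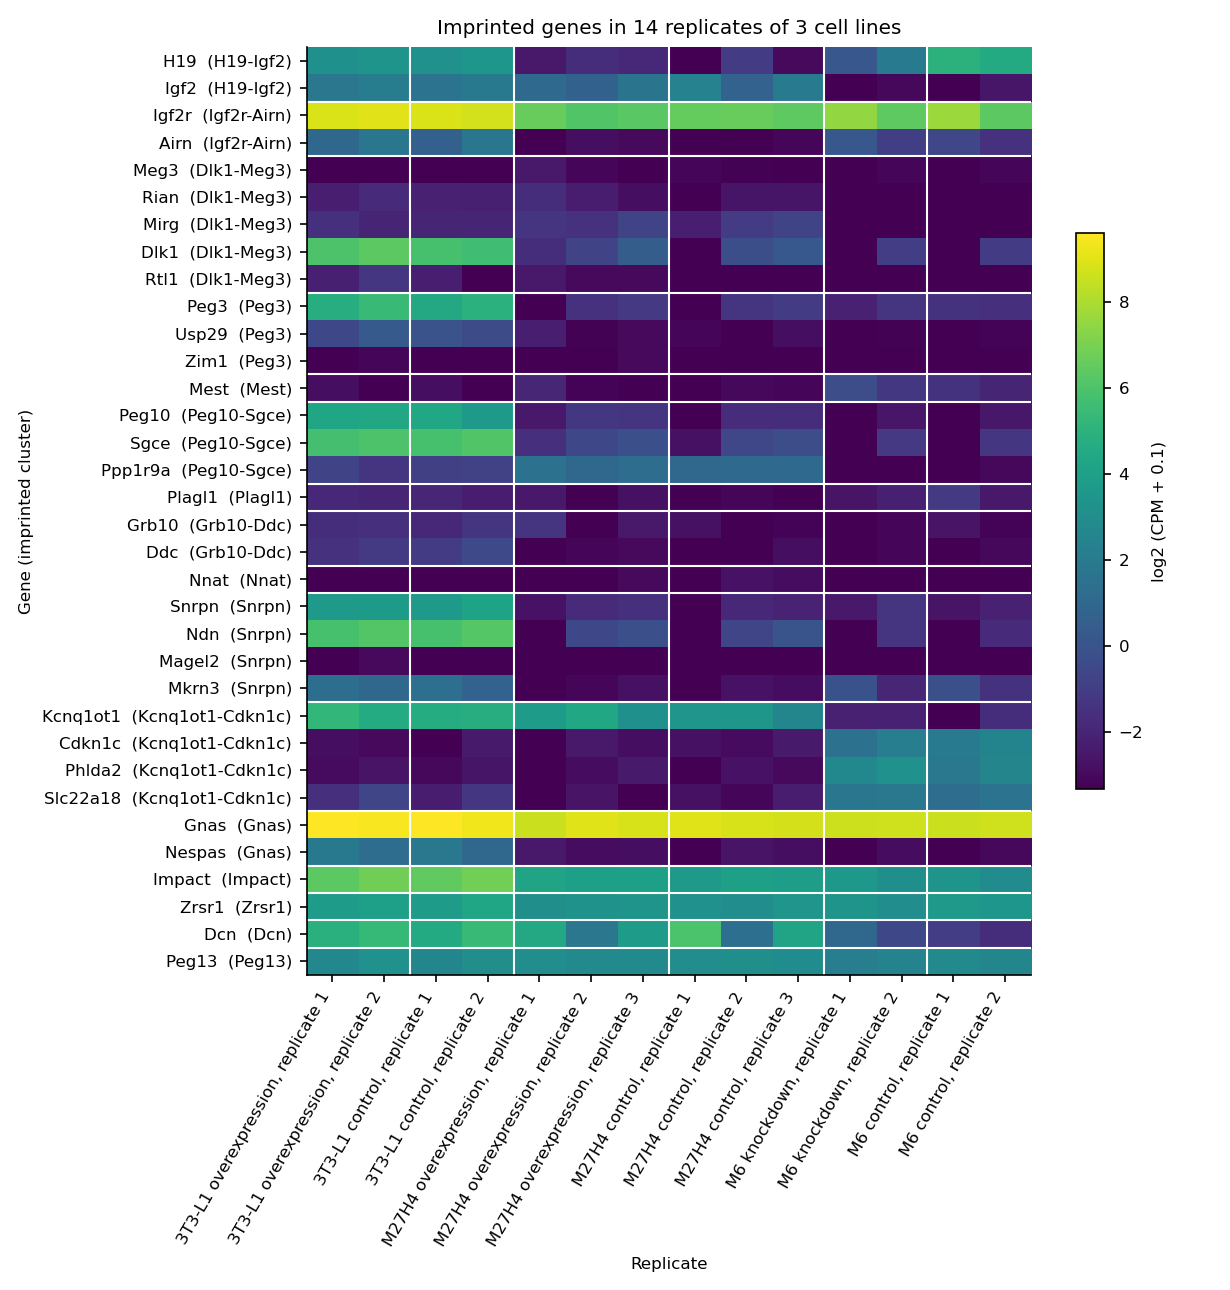
Levels of the 34 imprinted genes (rows, with their cluster) in the 14 replicates (columns), as log2 of CPM plus 0.1, treated replicates left of their controls in each line. Dlk1, Peg3, Peg10, Sgce, Snrpn and Ndn are bright in 3T3-L1 alone, Cdkn1c and Phlda2 in M6 alone, and Gnas and Igf2r in all lines.

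In the edgeR quasi-likelihood fit over all genes, with an adjusted p under 0.05 as a call, 3T3-L1 control differed from M6 control in 22 of the 30 genes tested (73.3%), where 39.4% of all genes were called. Of these, 19 were higher in 3T3-L1 (20.5% of all genes) and 3 lower (18.9%). Against M27H4 control, 3T3-L1 control had 19 higher (18.9% of all genes) and 1 lower (17.8%), together 20 of 30 with 36.6% of all genes called. M27H4 control had 6 higher (15.2% of all genes) and 7 lower (15%) than M6 control, where 30.2% of all genes were called in either direction. The median log2 fold change of the 30 genes was 4.83 for 3T3-L1 against M6, 3.41 for 3T3-L1 against M27H4 and 0.16 for M27H4 against M6, and over all genes it was 0.05, 0.02 and 0.02. A gene expressed in a single line passed the filter through that line, so these shares describe the set and are not evidence of their own. The 3 comparisons share their control groups. Of the 19 paternally expressed genes tested, 13 were higher and 0 lower in 3T3-L1 than in M6, and 16 were higher and 0 lower in 3T3-L1 than in M27H4. Of the 9 maternally expressed genes tested, 5 were higher and 3 lower in 3T3-L1 than in M6. Against M27H4, 2 of them were higher and 1 lower in 3T3-L1. In M27H4 against M6, 3 paternally expressed genes were higher and 3 lower, and 3 maternally expressed genes were higher and 4 lower. The limit of the filter holds for these counts too.

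**Figure D2:**
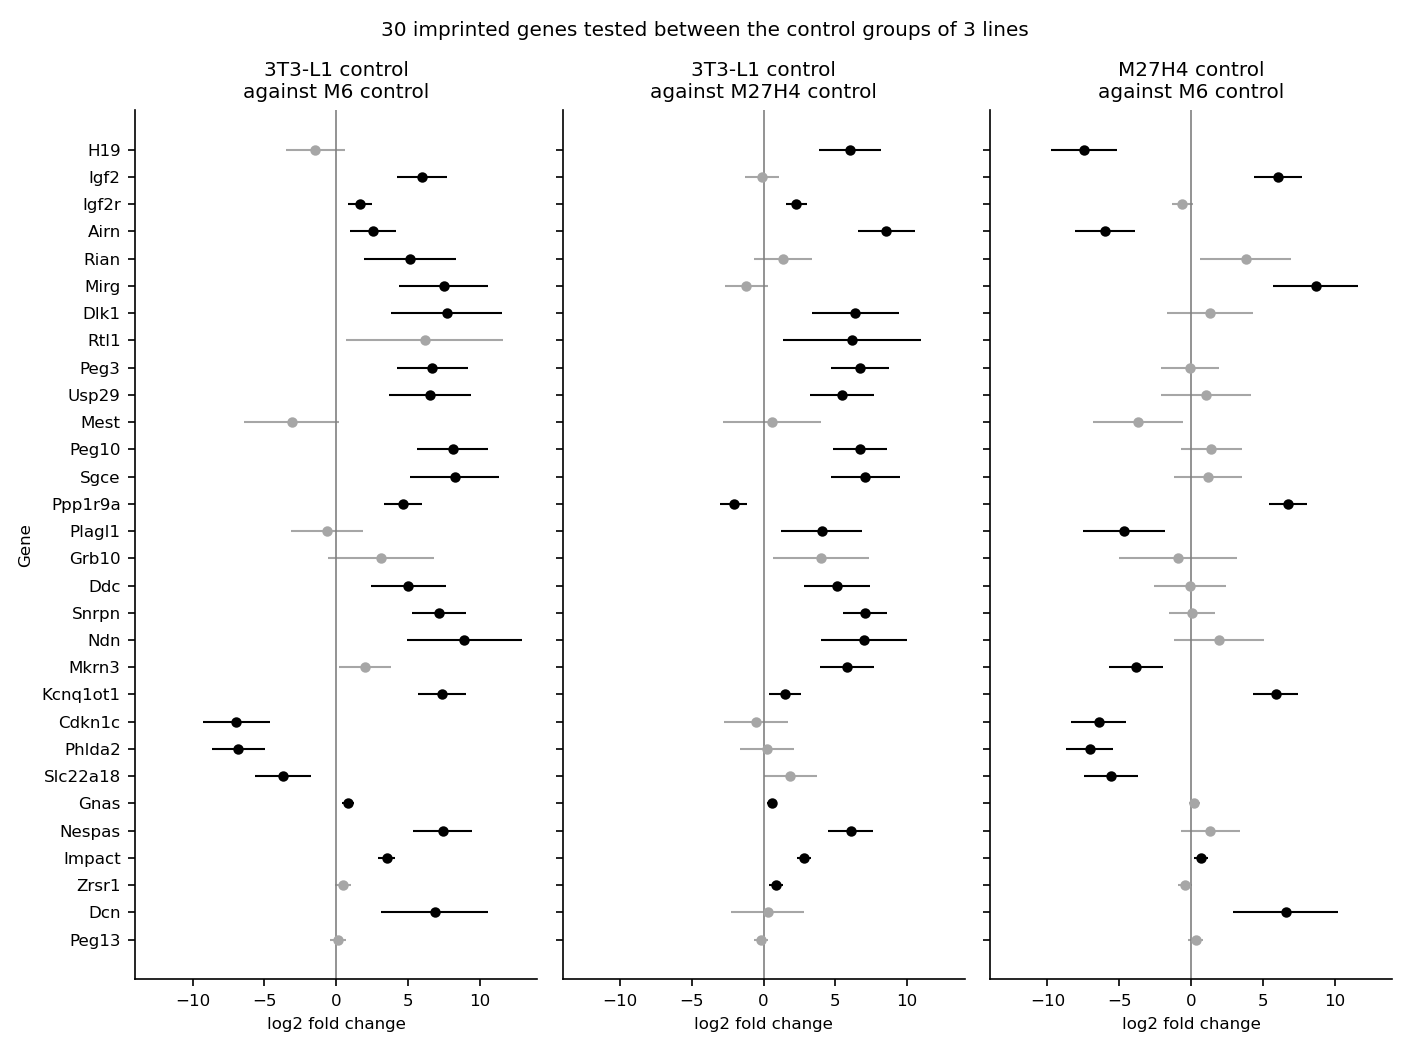
Log2 fold changes (horizontal axis, with 95% intervals from the edgeR fit) of the 30 genes tested, in the 3 comparisons of control groups. Black points were called at an adjusted p under 0.05 and grey points were not, and genes at 0 in both groups have no point; the first panel holds 19 black points right of 0 and 3 left of it.

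In the H19-Igf2 cluster the tumour lines differed in opposite directions. H19 (chr7:142575529-142578143, minus strand, a noncoding RNA that hosts miR-675) was at 9.23 and 11.2 CPM in 3T3-L1 control, at 0, 0.377 and 0.0245 CPM in M27H4 control and at 31.4 and 24.3 CPM in M6 control. Igf2 (chr7:142650766-142666816, minus strand, a fetal growth factor) was at 2.95 and 3.71 CPM in 3T3-L1 control, at 5.18, 1.60 and 4.0 CPM in M27H4 control and at 0 and 0.0711 CPM in M6 control. M6 was thus high in H19 and at or near 0 in Igf2, M27H4 the reverse, and 3T3-L1 had both. The tumour lines did not overlap in either gene, and between their control groups 17 of the 30 genes tested did not overlap. Per kilobase of exon, H19 averaged 11.3 CPM in M6 control and Igf2 0.628 CPM in M27H4 control.

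H19 was lower in M27H4 control than in M6 control by a log2 fold change of -7.45 (SE 1.03, edgeR adjusted p = 0.000252), and Igf2 was higher by 6.08 (SE 0.78, edgeR adjusted p = 5.02e-05). 3T3-L1 control exceeded M27H4 control in H19 by 6.0 (SE 0.98, edgeR adjusted p = 0.000698) and exceeded M6 control in Igf2 by 5.97 (SE 0.80, edgeR adjusted p = 5.16e-05). These 4 calls held in each of the 11 or 12 alternatives tried. In the lane that held M27H4 without the other lines, H19 had 3 counts in the overexpression column and 0 in the control column. M6 columns of the lane without 3T3-L1 had at most 4 counts of Igf2. An overlapping gene on Igf2's own strand, Gm49394, spans 16048 bp of the locus, so Igf2 counts could be split with it.

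**Figure D3:**
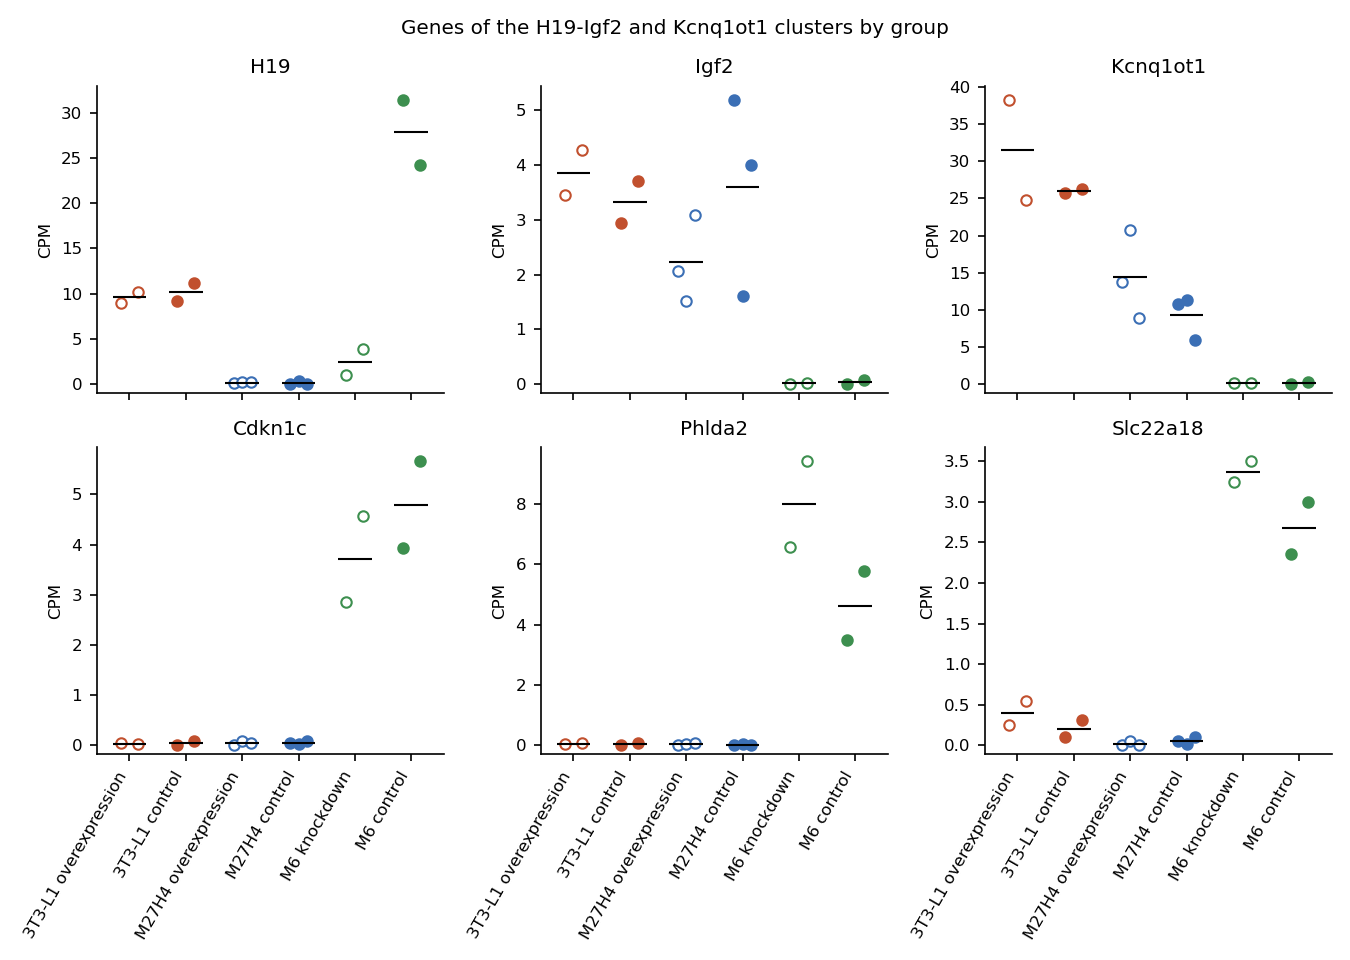
CPM (vertical axes, linear, a separate scale for each gene) of H19, Igf2, Kcnq1ot1, Cdkn1c, Phlda2 and Slc22a18 in each replicate of the 6 groups. Open circles are overexpression or knockdown, filled circles control, and bars group means; H19 lies at 31.4 and 24.3 CPM in M6 control, where Igf2 and Kcnq1ot1 lie at or near 0.

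The KCNQ1 domain split the same lines another way. Kcnq1ot1 (chr7:143203458-143296549, minus strand, the silencing noncoding RNA of the domain) was at 25.7 and 26.3 CPM in 3T3-L1 control, at 10.8, 11.3 and 5.95 CPM in M27H4 control and at 0 and 0.226 CPM in M6 control. The genes it is known to silence were highest in M6. The part of Kcnq1ot1 in their levels was not tested, and these totals do not tell the copies apart. Cdkn1c, an inhibitor of cyclin-dependent kinases, was at 0 and 0.0888 CPM in 3T3-L1 control, at 0.0488, 0.0314 and 0.0897 CPM in M27H4 control and at 3.93 and 5.66 CPM in M6 control. Phlda2, which limits placental growth, had 0.0228 and 0.0646 CPM in 3T3-L1 control, 0 to 0.0576 CPM in M27H4 control, and 3.48 and 5.79 CPM in M6 control. Slc22a18, a membrane transporter, had 0.1 and 0.315 CPM in 3T3-L1 control, 0.0157 to 0.106 CPM in M27H4 control, and 2.36 and 3.00 CPM in M6 control. M6 therefore stood apart from both other lines in all 4 genes with no overlap. A lack of overlap was common, however. It held for 27 of the 30 genes tested between 3T3-L1 and M6 control and for 17 between M27H4 and M6 control.

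Kcnq1ot1 was higher in 3T3-L1 control than in M6 control by a log2 fold change of 7.38 (SE 0.77, edgeR adjusted p = 1.04e-05) and in M27H4 control than in M6 control by 5.90 (SE 0.72, edgeR adjusted p = 4.67e-05). Cdkn1c was lower than in M6 control by -6.95 (SE 1.08) in 3T3-L1 and -6.41 (SE 0.88) in M27H4, with edgeR adjusted p of 0.000186 and 8.98e-05. Phlda2 was lower by -6.81 (SE 0.86) in 3T3-L1 and -7.06 (SE 0.74) in M27H4, with edgeR adjusted p of 3.31e-05 and 8.87e-06. For Slc22a18 the values were -3.72 (SE 0.90) and -5.59 (SE 0.87), with edgeR adjusted p of 0.00488 and 0.000241, and the 3T3-L1 call ended without 3T3-L1 control replicate 1 (edgeR adjusted p = 0.0569). Kcnq1 itself, which lies across Kcnq1ot1 on the other strand and belongs to the wider list of imprinted genes, averaged 0.159 ± 0.0195 CPM in 3T3-L1 control, 0.221 ± 0.196 in M27H4 control and 41.6 ± 2.68 in M6 control (SD, n = 2, 3 and 2). The strand setting of the counting is not stated, and reads of the 93092 bp shared by Kcnq1ot1 and Kcnq1 could be assigned to either of them, though the lines high in one had nearly none of the other.

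Kcnq1ot1 was also higher in 3T3-L1 control than in M27H4 control, by 1.47 (SE 0.51, edgeR adjusted p = 0.0388). That call ended in 7 of 12 alternatives, among them each of 3T3-L1 control replicates 1 (edgeR adjusted p = 0.123) and 2 (0.132) and M27H4 control replicates 2 (0.053) and 3 (0.116) left out. In the M6 columns of the lane without 3T3-L1, Kcnq1ot1 had 0 counts in both control columns and 6 and 0 in the knockdown columns.

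A group of genes expressed from the paternal copy, picked by their values here, was abundant in 3T3-L1 and close to 0 in both tumour lines. Dlk1 (chr12:109452823-109463336), a Notch-related inhibitor of fat cell differentiation that marks preadipocytes, was at 58.7 and 49.7 CPM in 3T3-L1 control, at 0, 0.749 and 1.10 CPM in M27H4 control and at 0 and 0.401 CPM in M6 control. Peg3, a zinc finger protein, was at 22.6 and 30.3 CPM in 3T3-L1 control, at 0, 0.288 and 0.400 CPM in M27H4 control and at 0.269 and 0.246 CPM in M6 control. The lowest 3T3-L1 replicate exceeded the highest tumour-line replicate many times over in both genes.

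Peg10, derived from a retrotransposon and needed in the placenta, was at 20.7 and 12.8 CPM in 3T3-L1 control, at 0 to 0.228 CPM in M27H4 control and at 0 and 0.0808 CPM in M6 control. Sgce, which encodes epsilon-sarcoglycan and starts beside Peg10 on the other strand, was at 57.9 and 69.5 CPM in 3T3-L1 control, at 0.0488 to 0.726 CPM in M27H4 control and at 0 and 0.314 CPM in M6 control. Peg10 and Sgce, a pair with a shared control region, thus had the same order of lines. In the Snrpn cluster, the region affected in Prader-Willi syndrome, Snrpn, a protein of the splicing machinery, had 12.9 and 18 CPM in 3T3-L1 control, 0 to 0.168 CPM in M27H4 control, and 0.0621 and 0.129 CPM in M6 control. Ndn, or necdin, a growth suppressor of the MAGE family, had 58.0 and 73.0 CPM in 3T3-L1 control, 0 to 0.922 CPM in M27H4 control, and 0 and 0.188 CPM in M6 control. Its neighbour Magel2, of the same family, was at 0 counts in all control replicates.

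The log2 fold changes of these 6 genes ran from 6.69 for Peg3 to 8.93 for Ndn in 3T3-L1 control against M6 control and from 6.38 for Dlk1 to 7.07 for Sgce against M27H4 control. Ndn had a fold change of 8.93 (SE 1.77, edgeR adjusted p = 0.00321) against M6 control and 6.97 (SE 1.32, edgeR adjusted p = 0.00281) against M27H4 control. Of the 6, Dlk1 had the largest adjusted p, 0.00606 against M6 control and 0.00479 against M27H4 control in edgeR, and Snrpn the smallest, 2.72e-05 and 7.01e-06. All 12 of these calls held under each alternative tried.

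The low levels in the tumour lines differed between lanes. In lanes shared with 3T3-L1, the summed level of the 6 genes was 1.77 to 3.67 CPM of the column total in the 6 M27H4 columns and 1.24 to 2.51 CPM in the 3 M6 columns, which is 0.747 to 1.34% and 0.522 to 0.915% of the 3T3-L1 level in the same lane. In lanes without 3T3-L1, it was 0.0496 and 0.631 CPM in the 2 M27H4 columns and 0.226 to 0.361 CPM in the 4 M6 columns. Dlk1, Peg10, Sgce and Ndn had 0 counts in all 4 M6 columns of their own lane, and Peg3 and Ndn had 0 in both M27H4 columns of theirs. Against 3 counts over the 2 M6 control columns of that lane, 3T3-L1 control was at least 2087-fold higher in Dlk1, 673-fold in Peg10, 2317-fold in Sgce and 2361-fold in Ndn. Peg3 and Snrpn kept counts in M6 without 3T3-L1 in the lane, 40 and 30 over the 4 columns. Sharing of a lane moved with the low values in the tumour lines, and its part in them was not tested. The 6 genes were picked by these values, abundant in 3T3-L1 control and near 0 in every tumour-line column. Their direction in both kinds of lane was thus set in advance.

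**Figure D4:**
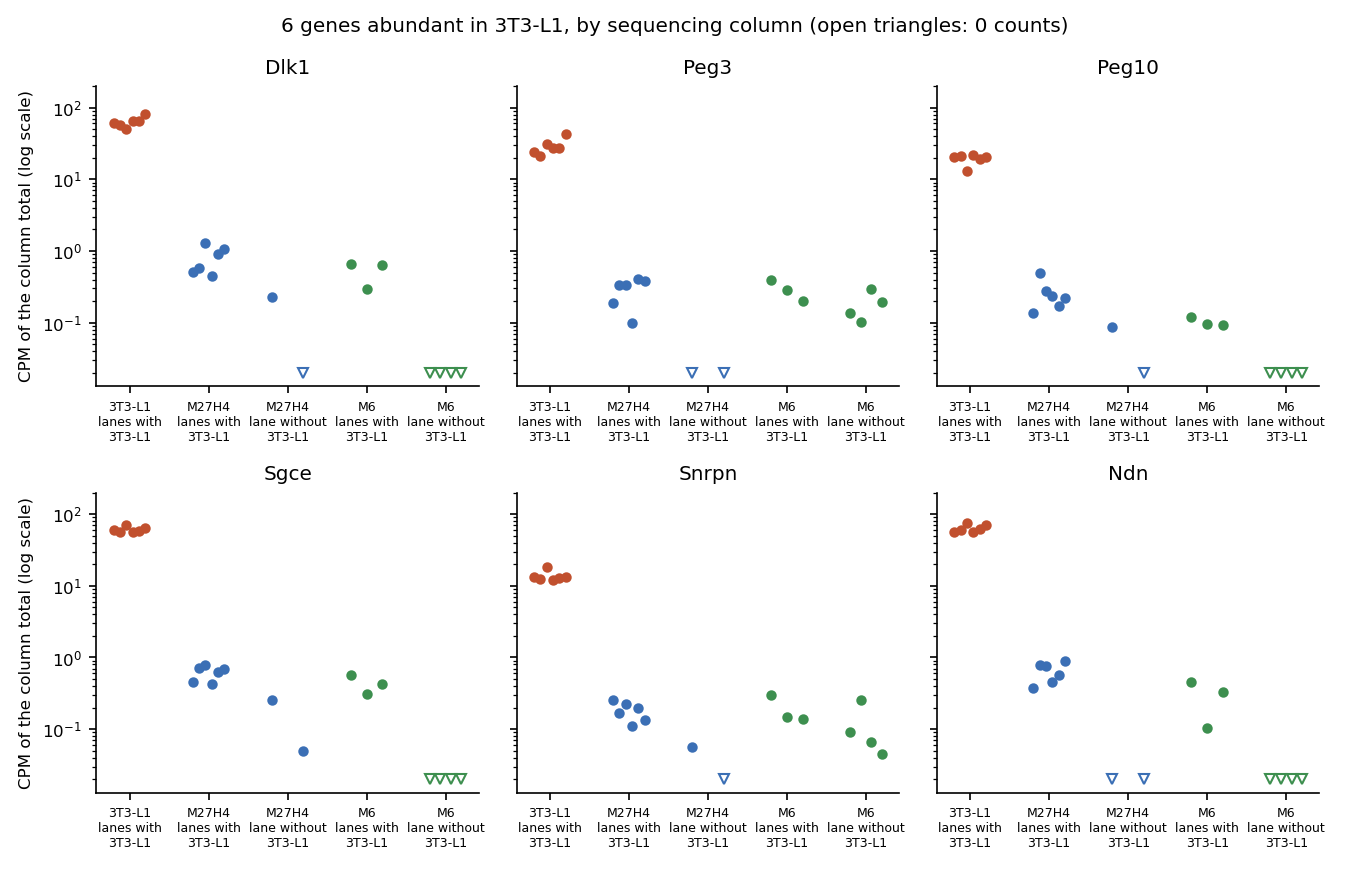
CPM of the column total (vertical axis, log scale) of 6 genes, picked by these levels, in each of the 21 deposited columns. Columns are split by line and by whether the lane also held 3T3-L1 libraries. Open triangles at the foot mark columns with 0 counts; 3T3-L1 columns lie at 11.9 CPM or above, M27H4 and M6 columns at 1.29 CPM or below.

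Other genes of these clusters were lower in level. Mkrn3, a ring finger protein of the Snrpn cluster that restrains the onset of puberty, was at 2.53 and 1.58 CPM in 3T3-L1 control, at 0 to 0.0576 CPM in M27H4 control and at 0.807 and 0.278 CPM in M6 control. It was higher in 3T3-L1 than in M27H4 by 5.8 (SE 0.88, edgeR adjusted p = 0.000177), and M27H4 was lower than M6 in edgeR with an adjusted p of 0.00448. In contrast to Dlk1 and Ndn, Mkrn3 had 21 to 41 counts in each M6 column of the lane without 3T3-L1. Usp29, transcribed away from Peg3, averaged 0.789 CPM in 3T3-L1 control, 0.019 in M27H4 control and 0.00485 in M6 control and was called in both 3T3-L1 comparisons. Ddc, Plagl1, Rian and Rtl1 were called in at least 1 line comparison as well, at control means of at most 0.513 CPM. Rtl1 against M27H4 had overlapping replicates and an edgeR adjusted p of 0.0496.

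Igf2r, the receptor that clears Igf2 and is expressed from the maternal copy in most mouse tissues, was abundant in all lines and highest in 3T3-L1. It was at 483 and 423 CPM in 3T3-L1 control, at 93.6, 99.7 and 84.6 CPM in M27H4 control and at 201 and 83.3 CPM in M6 control. The M6 knockdown replicates showed the same spread, at 184 and 86.6 CPM, with replicate 1 the higher in both groups. 3T3-L1 control exceeded M27H4 control by a log2 fold change of 2.29 (SE 0.34, edgeR adjusted p = 0.000147) and M6 control by 1.67 (SE 0.38, edgeR adjusted p = 0.00347). Airn, the noncoding RNA that starts inside Igf2r and silences it on the paternal copy, was at 1.47 and 3.27 CPM in 3T3-L1 control, at 0, 0 and 0.0163 CPM in M27H4 control and at 0.580 and 0.259 CPM in M6 control. Airn and Igf2r thus shared their highest line, while M27H4 had nearly no Airn beside an Igf2r level that overlapped that of M6. Airn was higher in 3T3-L1 than in M27H4 by 8.56 (SE 0.93, edgeR adjusted p = 1.07e-05) and than in M6 by 2.56 (SE 0.73, edgeR adjusted p = 0.0131), and the M6 comparison lost its call without 3T3-L1 control replicate 2 (edgeR adjusted p = 0.138) or M6 control replicate 2 (0.0993). The genes overlap on opposite strands over 28354 bp.

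Gnas, which encodes the stimulatory G protein alpha subunit and alternative products of imprinted promoters, was at 772 and 663 CPM in 3T3-L1 control, at 514, 459 and 450 CPM in M27H4 control and at 388 and 417 CPM in M6 control. It was modestly higher in 3T3-L1, by 0.60 against M27H4 (SE 0.17, edgeR adjusted p = 0.0129) and 0.83 against M6 (SE 0.19, edgeR adjusted p = 0.00299). Without 3T3-L1 control replicate 1 the call against M27H4 ended (edgeR adjusted p = 0.108), and in a fit of these 2 groups alone the call against M6 ended (0.0662). Nespas, the antisense RNA that silences the paternal Nesp promoter of Gnas, was at 3.59 and 1.96 CPM in 3T3-L1 control, at 0 to 0.0629 CPM in M27H4 control and at 0 and 0.0194 CPM in M6 control. It was higher in 3T3-L1 by 6.05 against M27H4 and 7.41 against M6, with edgeR adjusted p of 2.13e-05 and 3.68e-05. The share of Gnas counts on Nesp transcripts was at most 0.0545% in any column. The estimated share on extra-large transcripts ran from 0.00855 to 56% between 3T3-L1 columns, so the split of Gnas between its promoters was too unstable to compare.

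Impact, a regulator of translation under amino acid starvation, was at 88.4 and 118 CPM in 3T3-L1 control, at 12.7, 16.5 and 14.6 CPM in M27H4 control and at 10.4 and 7.62 CPM in M6 control. All lines expressed Impact, and 3T3-L1 stood far above the others, 7.04-fold over M27H4 (log2 2.82, SE 0.23, edgeR adjusted p = 7.44e-07) and 11.5-fold over M6 (log2 3.52, SE 0.27, edgeR adjusted p = 3.81e-07). M27H4 was above M6 by 0.70 (SE 0.23, edgeR adjusted p = 0.0334), a call that ended in 9 of 12 alternatives, including those without M27H4 control replicate 2 (edgeR adjusted p = 0.1), M27H4 control replicate 3 (0.0651) or M6 control replicate 2 (0.205).

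M27H4 was the highest line for few of the genes. Ppp1r9a, or neurabin, an actin-binding protein beside Peg10, was at 0.446 and 0.493 CPM in 3T3-L1 control, at 1.90, 2.02 and 2.06 CPM in M27H4 control and at 0 and 0.0226 CPM in M6 control. M27H4 exceeded M6 by a log2 fold change of 6.73 (SE 0.61, edgeR adjusted p = 4.06e-06), and 3T3-L1 was below M27H4 by -2.09 (SE 0.43, edgeR adjusted p = 0.00209). Ppp1r9a was the single gene lower in 3T3-L1 than in M27H4, although Peg10 and Sgce of the same cluster were higher there. Mirg, a host of microRNAs in the Dlk1-Meg3 cluster, was at 0.150 and 0.153 CPM in 3T3-L1 control, at 0.114, 0.383 and 0.530 CPM in M27H4 control and at 0 counts in all 4 M6 replicates. Against 3 counts over the M6 control group, Mirg was at least 18.1-fold higher in 3T3-L1 control and at least 40.8-fold higher in M27H4 control. Meg3, the best known noncoding RNA of that cluster, had at most 0.0834 CPM in any replicate and 0 counts in all 3T3-L1 replicates, beside 49.7 to 81.5 CPM of Dlk1.

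Dcn, the matrix proteoglycan decorin, imprinted in the mouse placenta, varied widely among the M27H4 replicates. It was at 23.8 and 44.3 CPM in 3T3-L1 control, at 63.1, 2.58 and 18.9 CPM in M27H4 control and at 0.414 and 0.223 CPM in M6 control. The M27H4 overexpression replicates with the same numbers had 22.7, 3.40 and 13.5 CPM, so the order of the 3 was alike in both groups. Compared with M6 control, Dcn was higher in 3T3-L1 (log2 6.86, SE 1.65, edgeR adjusted p = 0.00928) and in M27H4 (log2 6.59, SE 1.61, edgeR adjusted p = 0.0127), but the calls ended without M6 control replicate 1 (edgeR adjusted p = 0.0618 and 0.079) or replicate 2 (0.0803 and 0.103).

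Zrsr1 and Peg13 were above 1 CPM in every control replicate of all lines. Zrsr1, a splicing factor copy that lies inside Commd1, was at 13.5 and 19.9 CPM in 3T3-L1 control, at 9.17, 7.95 and 10.7 CPM in M27H4 control and at 13 and 11.3 CPM in M6 control. It was higher in 3T3-L1 than in M27H4 by 0.85 (SE 0.22, edgeR adjusted p = 0.00881), which ended without 3T3-L1 control replicate 2 (edgeR adjusted p = 0.17). Peg13, a noncoding RNA inside Trappc9, was at 6.01 and 8.42 CPM in 3T3-L1 control, at 8.09, 8.75 and 7.71 CPM in M27H4 control and at 7.02 and 5.98 CPM in M6 control and was called in none of the comparisons. Mest, a hydrolase-like protein of mesoderm, and Grb10, an adaptor that restrains insulin and IGF signalling, averaged at most 0.211 and 0.226 CPM in the control groups and were not called either. Zim1, Nnat and Magel2 stayed at or below 0.0576 CPM in every replicate.

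The question of the study for these genes is whether changing Esrp2-as moved them. No imprinted gene was called in any of the 3 treatment comparisons by edgeR, and none by DESeq2. In M6 the knockdown had 0 of 30 called where 0.137% of all genes were called (0.122% higher and 0.0141% lower), and 2 of the 30 had an unadjusted p under 0.05, beside 1331 of 21237 genes. M27H4 overexpression had 0 of 30 with 0.00942% of all genes called, and 1 of the 30 had an unadjusted p under 0.05, beside 358 genes. 3T3-L1 overexpression had 0 of 30 with 0.00471% of all genes called, and 0 of the 30 had an unadjusted p under 0.05, beside 201 genes. A p above the threshold does not show that a gene stayed the same, and the intervals for genes of few counts were wide. Replicates of the treated and control groups did not overlap for 7 of the 30 genes in M6 (26.4% of all genes tested), 1 in M27H4 (5.1%) and 3 in 3T3-L1 (23.2%). Tests of the difference between any pair of these effects called 0 of the 30 as well, where 0.00471% of all genes (3T3-L1 against M27H4), 0.0283% (M6 against M27H4; 0.0188% higher and 0.00942% lower) and 0.0235% (M6 against 3T3-L1; 0.0141% higher and 0.00942% lower) were called.

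H19 had the smallest p in M6. It was at 1.03 and 3.83 CPM in M6 knockdown and at 31.4 and 24.3 CPM in M6 control, with no overlap. The log2 fold change was -3.49 (SE 1.01, 95% interval from -5.72 to -1.26), with an unadjusted p of 0.00572 in the fit across all genes and an edgeR adjusted p of 0.409, so it was not called. DESeq2 gave an adjusted p of 0.17, and leaving out any 1 of the 4 M6 replicates gave log2 values from -4.76 to -2.85. Leaving a library of another line out of the shared fit moved the edgeR adjusted p between 0.0447, without M27H4 control replicate 2, and 0.639, at log2 values of -3.48 to -3.51.

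In the lane of M6 columns without 3T3-L1, which held both M6 groups, H19 was at 1.11 and 3.67 CPM of the column total in knockdown and at 34.0 and 20.0 CPM in control. The knockdown column in another lane had 3.68 CPM, and the remaining control columns had 23.9 and 23.3 CPM. A single annotated transcript held 0 of 49 H19 counts in knockdown replicate 1 and 274 of 285 and 375 of 400 in the columns of knockdown replicate 2, while in M6 control replicate 1 it held 1506 of 1516. That split was unstable at low counts, since in M27H4 overexpression replicate 2 the same transcript held 26 of 26 counts in 1 lane and 0 of 27 in another. Epithelial markers summed to 3634 to 4893 CPM in M6 knockdown and 3583 to 4908 in M6 control, and fibroblast markers to 74.7 to 87.7 CPM in knockdown and 104 to 155 in control. Myoepithelial markers summed to 594 to 1248 CPM in knockdown and 1083 to 1843 in control. Of these, 0 of the 6 were called, where 0.137% of all genes were called. The part of these markers in the H19 values was not tested. Igf2, the partner of H19, was at 0 and 0.0224 CPM in M6 knockdown and 0 and 0.0711 CPM in M6 control (log2 -1.59, SE 1.03, edgeR adjusted p = 0.979). The other genes with the smallest p were Ppp1r9a, with 0 counts in knockdown and 7 in control, and Zrsr1, at 10.4 and 8.16 CPM in knockdown and 13 and 11.3 CPM in control (log2 -0.39, SE 0.25, edgeR adjusted p = 0.978). Cdkn1c was at 2.85 and 4.56 CPM in knockdown and 3.93 and 5.66 CPM in control, and Phlda2 at 6.58 and 9.41 CPM in knockdown and 3.48 and 5.79 CPM in control, neither of them called. Dcn, at 2.0 and 0.604 CPM in knockdown and 0.414 and 0.223 CPM in control, and Peg13, at 4.54 and 5.39 CPM in knockdown and 7.02 and 5.98 CPM in control, did not overlap between the groups, like Phlda2, and were not called.

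Overexpression of Esrp2-as left no called difference among these genes. In M27H4 the smallest p values belonged to genes of very low level. Rtl1, a retrotransposon-derived protein, had 0.0834, 0.0252 and 0.0247 CPM in overexpression and 0 counts in control, at least 5.55-fold higher against 3 counts over the control group, with an edgeR adjusted p of 1. Airn, Grb10 and Plagl1 came next, at means of 0.0222, 0.129 and 0.0443 CPM in overexpression and 0.00544, 0.019 and 0.00524 CPM in control. In 3T3-L1 the 4 smallest p values were those of Slc22a18 (log2 0.95, SE 0.85), Rtl1 (1.83, SE 1.37), Ddc (-0.74, SE 0.94) and Zrsr1 (-0.15, SE 0.25), each with an edgeR adjusted p of 1. H19 was at 9.01 and 10.2 CPM in 3T3-L1 overexpression and 9.23 and 11.2 CPM in control, and Dlk1 at 64.7 and 81.5 CPM in overexpression and 58.7 and 49.7 CPM in control. Kcnq1ot1 was at 13.7, 20.8 and 8.91 CPM in M27H4 overexpression and 10.8, 11.3 and 5.95 CPM in M27H4 control, so the groups overlapped while overexpression was higher in all 3 pairs of the same replicate number (log2 0.61, SE 0.29, edgeR adjusted p = 0.989 with the replicate block). Igf2 was at 2.06, 1.52 and 3.08 CPM in M27H4 overexpression and 5.18, 1.60 and 4.0 CPM in M27H4 control, lower in all 3 pairs (log2 -0.57, SE 0.27, edgeR adjusted p = 0.989 with the block). All 3 pairs went one way for 7 of the 30 genes (23.3%) and for 21.2% of all genes tested.

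**Figure D5:**
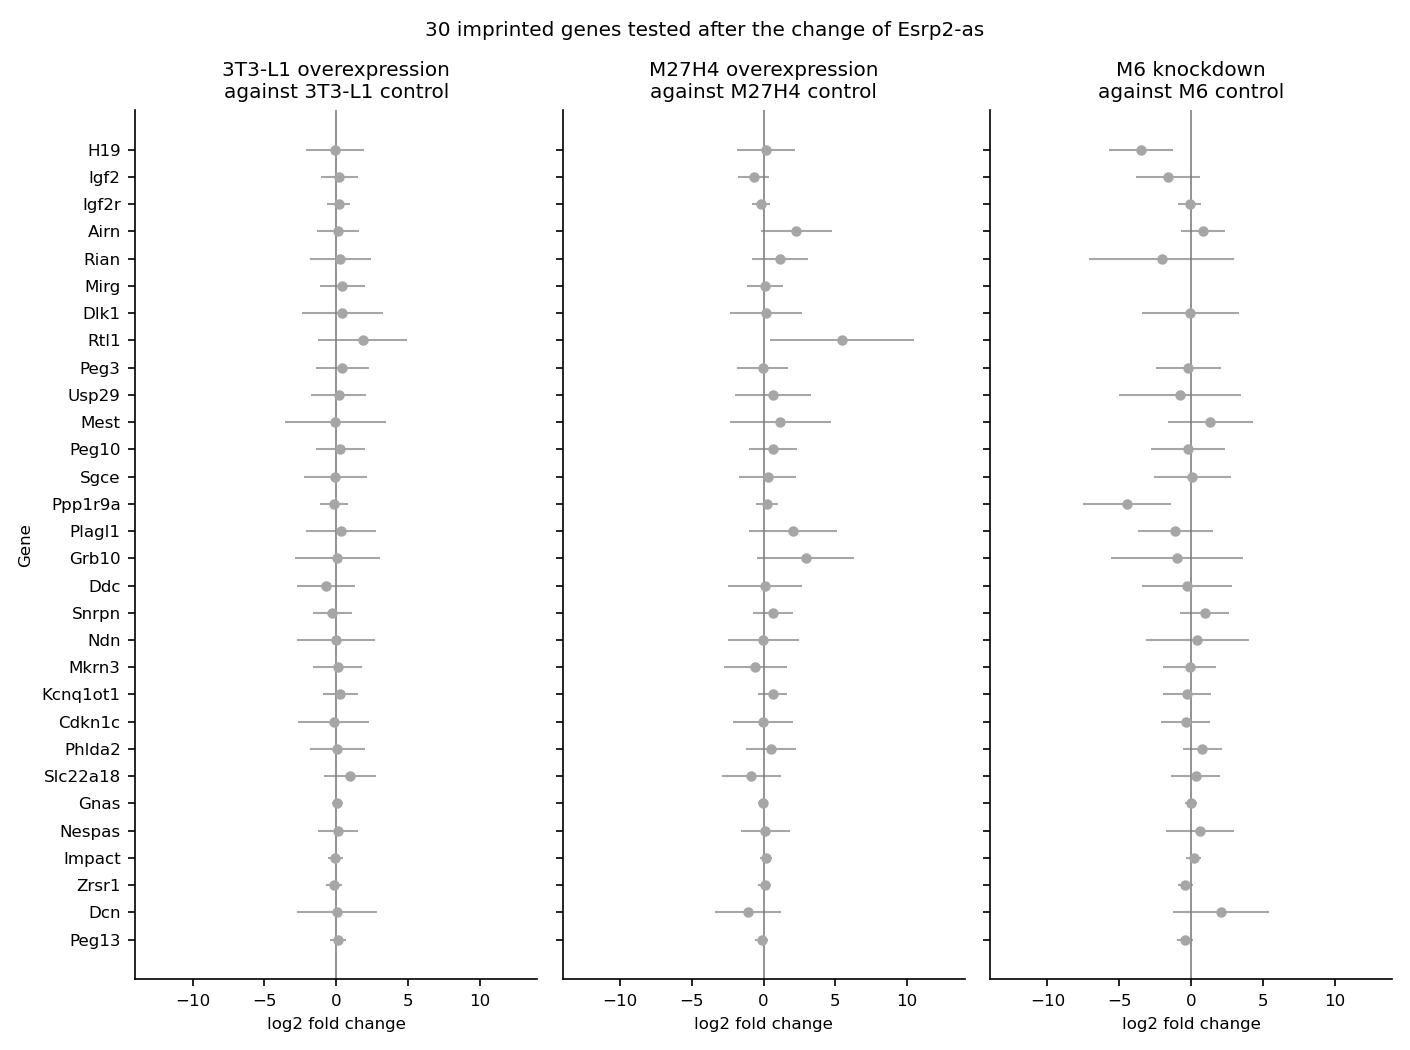
Log2 fold changes (horizontal axis, with 95% intervals from the edgeR fit) of the 30 genes tested after overexpression or knockdown of Esrp2-as, each against the control of the same line. All points are grey because none was called, genes at 0 in both groups have no point, and H19 in M6 lies at -3.49.

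A further 45 genes of imprinted clusters were looked up beside these, and 30 of them were tested. In 3T3-L1 control against M6 control 14 were higher and 5 lower (20.5% and 18.9% of all genes), against M27H4 control 11 were higher and 6 lower (18.9% and 17.8%), and in M27H4 control against M6 control 7 were higher and 4 lower (15.2% and 15%). Their median log2 fold changes were 0.55, 0.67 and 0.31. Pon3, a paraoxonase near Peg10 and Sgce, averaged 0.487 CPM in 3T3-L1 control, 44.2 in M27H4 control and 34.0 in M6 control, lowest in 3T3-L1, where Peg10 and Sgce were highest. Sfmbt2, a polycomb-group gene, averaged 7.01 CPM in 3T3-L1 control, 26.0 in M27H4 control and 0.0928 in M6 control. Snhg14, the long host RNA downstream of Snrpn, averaged 6.01 CPM in 3T3-L1 control, 0.0718 in M27H4 control and 0.223 in M6 control, highest in 3T3-L1 like Snrpn itself. Peg12 of the same cluster averaged 17.3, 0.11 and 0.042 CPM, and the amino acid transporter gene Slc38a4 averaged 273, 1.80 and 0.711 CPM in 3T3-L1, M27H4 and M6 control; these 2 were chosen after their values were seen. In each treatment comparison 0 of the 30 were called, where 0.137% of all genes were called in M6, 0.00942% in M27H4 and 0.00471% in 3T3-L1.

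Among 28 factors of imprint maintenance and DNA methylation, 25 were tested, and 2 were higher and 11 lower in 3T3-L1 control than in M6 control (20.5% and 18.9% of all genes), while 4 were higher and 10 lower than in M27H4 control (18.9% and 17.8%). Zfp57, the zinc finger protein that protects methylated imprints, was among the higher ones, with a mean of 15.9 CPM in 3T3-L1 control, 0.28 in M27H4 control and 0.215 in M6 control. Its log2 fold change was 5.76 against M27H4 (SE 0.66, edgeR adjusted p = 1.87e-05) and 6.50 against M6 (SE 0.84, edgeR adjusted p = 4.45e-05). The maintenance methyltransferase gene Dnmt1, chosen after its values were seen, averaged 220 CPM in 3T3-L1 control, 575 in M27H4 control and 428 in M6 control, and the polycomb methyltransferase gene Ezh2 38.5, 111 and 97.3 CPM. Arid4a, a chromatin factor known to act on the imprint of the Snrpn region, averaged 13.9 CPM in 3T3-L1 control, 46.5 in M27H4 control and 50.7 in M6 control. Between the tumour lines, 2 of these factors were higher and 3 lower in M27H4 (15.2% and 15% of all genes), among them Dnmt3b at 0.641 CPM in M27H4 control and 4.87 CPM in M6 control. Treatment called 0 of the 25 in each line, where 0.137% of all genes were called in M6, 0.00942% in M27H4 and 0.00471% in 3T3-L1.

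Of 15 partners of Igf2 in the insulin-like growth factor pathway, 13 were tested. In 3T3-L1, 5 were higher and 3 lower than in M6 (39.4% of all genes called in either direction). Against M27H4, 3T3-L1 had 8 higher and 2 lower (36.6%), and M27H4 had 4 higher and 5 lower than M6 (30.2%). Treatment called 0 of the 13, where 0.137% of all genes were called in M6, 0.00942% in M27H4 and 0.00471% in 3T3-L1. Igf2bp1, which binds Igf2 messenger RNA, averaged 95.9 CPM in 3T3-L1 control, 10.1 in M27H4 control and 6.26 in M6 control. The 32 genes beside the clusters that are not known to be imprinted served as neighbours, 27 of them tested. Of these, 6 were higher and 2 lower in 3T3-L1 than in M6 (20.5% and 18.9% of all genes), 8 higher and 3 lower in 3T3-L1 than in M27H4 (18.9% and 17.8%), and 1 higher and 4 lower in M27H4 than in M6 (15.2% and 15%). Their median log2 fold changes were 0.03, 0.14 and -0.20, and 0 were called after any treatment, beside the same small shares of all genes. Lsp1 near H19 averaged 64.9 CPM in 3T3-L1 control, 2.51 in M27H4 control and 5.27 in M6 control, while Casd1 beside Sgce, chosen after its values were seen, averaged 69.1, 62.5 and 71.9 CPM and was not called.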

How the data were processed

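The labels describe RNA depleted of ribosomal RNA and made into strand-specific libraries. The authors deposited expected counts per gene and per transcript. The submitters' processing notes name cutadapt, HISAT2, StringTie and edgeR and the mouse build mm10 (GRCm38). The strand setting of the counting is not given in the sources used here. Tables normalised by the authors were not used, and 1 value column in each of them matched no sample.

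The deposited counts were used as given, and technical replicates were summed to 14 replicates in 6 groups, mapped through the labels. A quasi-likelihood model with TMM scaling was fitted in edgeR 4.0.16 (R 4.3.3) to 21237 genes left by its default filter, with 8 residual degrees of freedom and a biological coefficient of variation of 0.323. Benjamini-Hochberg adjustment ran across the whole set of 21237 genes, and a call is an adjusted p under 0.05. CPM uses the effective library size, and level per kilobase uses total exon length. A fold against a group at 0 counts was set against 3 counts, which covers counting error only. Depth ran from 34892461 to 328493417 counts per replicate. The tests were also run on simulated data with known changes.

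The genes and gene lists were chosen with earlier results of these data known. A fold change is given for an imprinted gene called in a line comparison with at least 1 CPM in the higher group, and for the 4 smallest p values in each treatment comparison. From each further list, up to 4 called genes of at least 1 CPM with the smallest p are named, with exceptions marked. Alternatives were DESeq2 1.42.0, its size factors, no filter, only the 2 groups compared, a replicate block, the M6-only lane and each replicate left out; tumour-line columns from lanes without 3T3-L1 and a lane block were added after seeing the data. In M27H4, deviations from the group means of replicates with the same number correlated at 0.494, 0.257 and 0.338. Same-number M27H4 samples also came from the same lanes, so the correlation does not show that they are pairs. The correlation was 0.592 in M6 and 0.433 in 3T3-L1. A group there has 2 replicates, so both numbers give the same value.

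Gene names and 1-based positions are from GENCODE M21, which held 48058 of the 48440 identifiers, and 0.0515% of counts fell on the rest. Sequences are from RefSeq on GRCm38.p6.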

Additional observations from a re-analysis of the deposited data

How the results depend on the processing

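The 42 fold changes given for line comparisons kept direction and call in 177 values with a replicate left out and lost the call in 16, and under other settings they kept it in 281 and lost it in 13, with no change of sign. The losses are those of Airn, Dcn, Gnas, Impact, Kcnq1ot1, Slc22a18 and Zrsr1, and the cause was not tested. Leaving out each replicate in turn, 16 to 19 imprinted genes were called higher and 2 to 3 lower in 3T3-L1 than in M6, 15 to 18 higher and 1 to 2 lower in 3T3-L1 than in M27H4, and 4 to 7 higher and 6 to 8 lower in M27H4 than in M6. The number lower in 3T3-L1 than in M6 was 5 when only the 2 groups compared were fitted, with H19 and Mest added. Lower in 3T3-L1 than in M27H4 were 2 genes without 3T3-L1 control replicate 2, Cdkn1c being the added one. Other settings gave 14 to 19 genes higher in 3T3-L1 than in M27H4 and 4 to 8 higher in M27H4 than in M6. Imprinted genes called after treatment were 0 under each setting, also by DESeq2, except that H19 was called in M6 knockdown (edgeR adjusted p = 0.0447) when M27H4 control replicate 2 was left out of the shared fit. The log2 fold change of Igf2 in M6 knockdown ran from -5.94 to 4.25 and that of Zrsr1 in 3T3-L1 overexpression from -0.40 to 0.14 with a replicate left out, so these have no stable direction. Over all genes, the M6 knockdown had 29 calls in edgeR, 235 in DESeq2, 64 without a filter, 293 with the replicate block, 0 with the 2 groups alone, and 6 to 60 with an M6 replicate left out.

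For line comparisons the block was the replicate number over all groups, which also joins unrelated lines. It gave 19 higher and 3 lower for 3T3-L1 against M6, 16 and 1 for 3T3-L1 against M27H4, and 5 and 7 for M27H4 against M6. For treatment comparisons the block was the replicate number within a line. With it, H19 in M6 knockdown had a log2 fold change of -3.69 and an edgeR adjusted p of 0.0985. The block over all groups ended the calls of Kcnq1ot1 (edgeR adjusted p = 0.058), Plagl1 and Rtl1 between 3T3-L1 and M27H4. It also ended that of Impact between M27H4 and M6 (edgeR adjusted p = 0.0504). In 3T3-L1 and M6, with 2 replicates a group, deviations of same-number samples also correlated, at 0.433 and 0.592. Same-number 3T3-L1 samples came from the same lanes. In M6 both numbers of both groups had columns in the M6-only lane, and the further lanes of replicate 2 differed between its groups. The labels do not say whether same-number samples are pairs in any line.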
